A study of Schizosaccharomyces pombe with 9 samples.

Results

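The 39 nuclear genes of fission yeast (Schizosaccharomyces pombe) whose standard names are mrpl or mrps followed by a digit encode proteins of the mitochondrial ribosome. They were picked by name alone from the 6988 features of the count table. Of the 39 genes, 31 are mrpl genes for the large subunit and 8 are mrps genes for the small subunit. The annotated products of 37 name a mitochondrial ribosomal protein, and those of mrpl50 and mrps26 give the gene name only. Subunits were taken from the gene names, and another gene, SPBC16A3.14, carries the product name of subunit S26. Mitoribosomal proteins that carry other names, such as img2, mrp5 or cox24, were kept apart and are described with the other mitochondrial genes. All 39 genes passed the filter on low counts, which kept 6227 features.

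The mitochondrial ribosome translates the few proteins that the mitochondrial genome encodes, most of them core subunits of the respiratory chain and of ATP synthase. Its RNA is made inside the organelle, whereas nearly all of its proteins are encoded in the nucleus, translated in the cytosol and imported. Some of these proteins belong to families shared by all ribosomes (named uL or uS), some to families shared with bacteria (bL), and some occur only in mitochondria (mL).

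Cells growing exponentially in the rich medium YES at 30 °C were harvested, and poly(A) RNA was sequenced in 3 libraries from each of 3 strains. The strains were wild type (WT, strain Sp1), a strain labelled as an rsm1 deletion marked with natMX (ASY240), and a strain with the nup211-1435 allele and a wild-type asp1 gene marked with kanMX (asp1-WT::kanMX, IAP105). All are labelled h-, and the series asked how the nuclear basket subunits Nup211 and Rsm1 affect 3′-processing and transcription termination of RNA. The second strain's libraries are called rsm1-labelled below. Despite its name, rsm1 is here a gene of the nuclear basket and not of the mitochondrial ribosome. Each mutant also differs from WT by its drug marker, and the effect of the marker cannot be told apart from that of the mutation. In the nup211-1435 strain the marker is at asp1, a gene for an inositol pyrophosphate kinase, whose allele is labelled wild type.

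Depth was 20.98 to 28.11 M counts per library. Levels are counts over the library total after TMM scaling, which aligns libraries by a trimmed mean of their log ratios (TMM-scaled CPM), and 3 counts correspond to 0.106 to 0.139 CPM, a floor that covers counting error only. The rsm1 gene itself had 36.7 ± 0.398 CPM in WT, 31.8 ± 1.25 in the rsm1-labelled libraries and 44.1 ± 0.932 in nup211-1435 (SD, n = 3), so its counts do not bear out the label. In WT the 7 marker genes of M cells (h-) had 0.759 to 70.6 CPM. The 4 of P cells (h+) had 6.80 (map2), 13.2 (map3), 21.8 (map4) and 605 CPM (sxa1), so neither set was at 0. Fold changes are given as log2 with the standard error (SE). Calls were made where the adjusted p was under 0.05 in edgeR's quasi-likelihood test with Benjamini-Hochberg adjustment over all 6227 features.

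In WT the 39 genes were expressed at moderate levels. Per kb of annotated exon they had 16.9 to 127 TMM-scaled CPM with a median of 65.2, where the 4995 protein-coding genes tested had a median of 40.96. Among those 4995 genes the mitoribosomal genes stood between percentiles 19.0 and 81.4, and 32 of 39 lay above percentile 50. The highest and the lowest member differed 7.54-fold. Cytosolic ribosomal protein genes had a median of 2515 and the nuclear respiratory chain and ATP synthase genes a median of 185 on the same scale.

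The member with the highest level per length was mrps16, with 127 ± 2.51 CPM per kb (SD, n = 3) in WT. It was followed by mrpl19, which encodes the factor-binding protein uL11m (119 ± 1.21), and by mrpl4, for uL29m near the exit tunnel (104 ± 0.397). The lowest were mrpl20 for mL58 (16.9 ± 0.243), mrpl27 (18.8 ± 3.31) and mrpl37 for mL54 (28.8 ± 0.729). Replicates lay close together, with a median SD of 2.52% of the mean in WT, 3.03% in the rsm1-labelled libraries and 2.69% in nup211-1435. The widest spread in WT was that of mrpl27 (17.6%), which was also the member with the fewest counts, and the next was that of mrpl38 (8.39%).

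**Figure D1:**
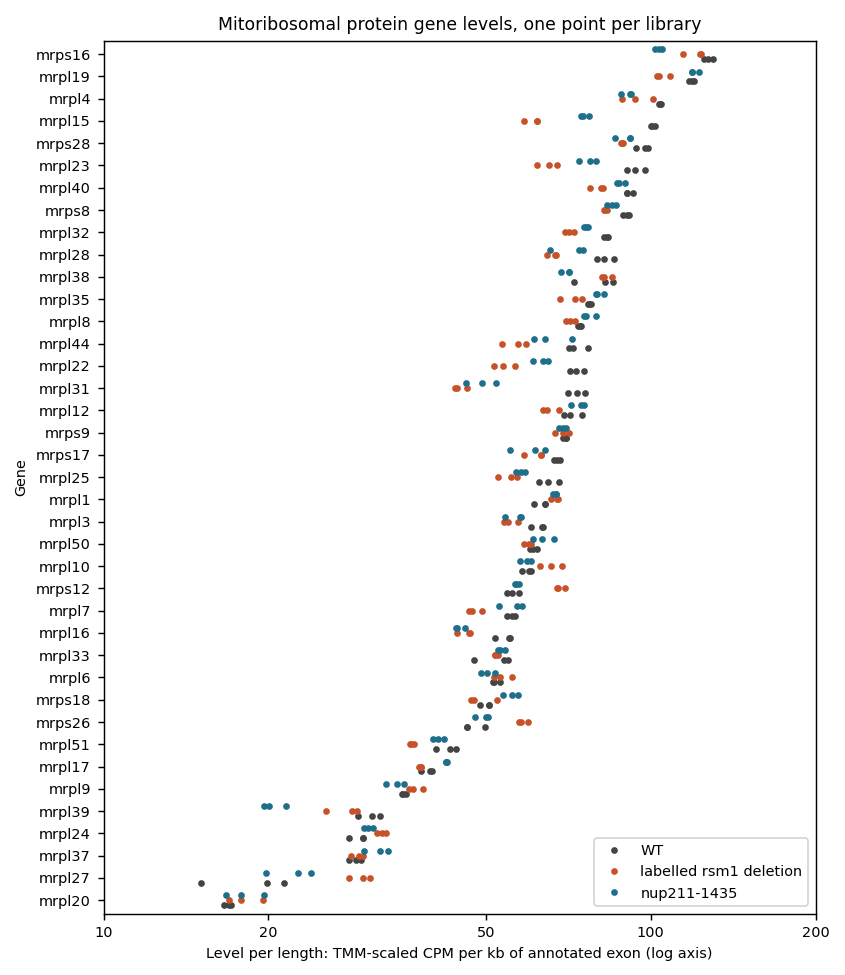
Level per length of the 39 mitoribosomal protein genes, with one point for each of the 9 libraries (TMM-scaled CPM per kb of annotated exon, log axis), ordered by the mean in WT. The WT means run from 16.9 for mrpl20 to 127 for mrps16, with the 3 points of a strain close together for most genes and widest in WT for mrpl27.

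In the rsm1-labelled libraries, mitoribosomal genes moved in both directions and by little: no member changed 2-fold, and log2 fold changes against WT ran from -0.73 to 0.65. With TMM scaling 20 of 39 were called lower and 6 higher, whereas scaling by total counts gave 7 lower and 16 higher. Across all features 34.1% were called lower and 36.7% higher with TMM, and 22.4% and 50.3% with total counts. The direction of the family as a whole therefore turned with the scaling, and only single genes can be given a direction. The median of the members was -0.13 with TMM, where all features had 0.01, and 0.02 with total counts, where all features had 0.16, so it lay below that of all features on either scale. Counts are shares of a library, so they do not give changes in the absolute amount of RNA. Each library also pools many cells, so less RNA per cell and fewer cells that express a gene cannot be told apart.

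The 2 scalings differed because TMM assigned factors of 0.934 to 0.943 to the WT libraries and 1.02 to 1.04 to the mutant libraries, which moved the median of all features by 0.143 in this comparison. Cytosolic ribosomal protein genes held 21.6 ± 0.455% of all counts in WT, 17.8 ± 0.232% in the rsm1-labelled libraries and 18.3 ± 0.273% in nup211-1435 (SD, n = 3). Their part in the difference between scalings was not tested. The summed level of the 39 genes was 2675 ± 16.6 TMM-scaled CPM in WT and 2506 ± 22.0 in the rsm1-labelled libraries. As a share of the raw counts it was 0.251% in WT and 0.259% in the rsm1-labelled libraries, which is the opposite order. Called lower with both scalings were 7 members (mrpl15, mrpl31, mrpl23, mrpl22, mrpl44, mrpl28 and mrpl16), and called higher with both were 6 (mrpl27, mrps26, mrps12, mrpl10, mrpl24 and mrpl1).

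The deepest falls were in proteins that occur only in mitochondria. The gene mrpl15 encodes mL57, which in budding yeast has a fold like RNase III. It had 92.8, 91.2 and 91.6 CPM in the WT libraries and 56.3, 56.4 and 53.4 in the rsm1-labelled ones. The groups did not overlap, and mrpl15 fell by 0.73 ± 0.04 (SE) on the log2 scale (adjusted p = 1.78e-10). The gene mrpl31, for mL60, had 52.0, 50.1 and 53.9 CPM in WT and 31.4, 31.1 and 32.7 in the rsm1-labelled libraries. Its groups were as clearly apart, at a log2 fold change of -0.71 ± 0.05 (adjusted p = 1.15e-08). Smaller falls were found for mrpl44, for mL53 (-0.37 ± 0.07, adjusted p = 0.000334), for mrpl28, for mL40 (-0.32 ± 0.05, adjusted p = 6.64e-05), and for mrpl25, for mL59 (-0.25 ± 0.05, adjusted p = 0.00025). The call of mrpl25 was lost with total counts (adjusted p = 0.0609).

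Among the families shared by all ribosomes, mrpl23 and mrpl22 fell most. The gene mrpl23 encodes uL13m and had 75.1, 72.5 and 78.2 CPM in WT and 52.2, 53.97 and 49.7 in the rsm1-labelled libraries. Its groups did not overlap (-0.53 ± 0.05, adjusted p = 5.12e-08). The gene mrpl22 encodes uL22m, a protein of the exit tunnel, and had 68.4, 70.2 and 72.6 CPM in WT and 51.6, 49.6 and 54.3 in the rsm1-labelled libraries. These groups did not overlap either (-0.44 ± 0.04, adjusted p = 3.09e-07). For mrpl16, which encodes uL16m, the log2 fold change was -0.24 ± 0.04 (adjusted p = 5.31e-05).

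The member with the largest rise was mrpl27, a large-subunit gene. It had 11.6, 12.4 and 8.76 CPM in WT and 17.3, 16.3 and 17.8 in the rsm1-labelled libraries. The groups did not overlap although the WT libraries were spread widely (0.65 ± 0.11, adjusted p = 0.000116). Among the mrps genes, mrps26 had 169.7, 169.5 and 182.5 CPM in WT and 212.8, 219.3 and 211.1 in the rsm1-labelled libraries (0.30 ± 0.04, adjusted p = 2.86e-06). The gene mrps12 encodes uS12m, a protein of the decoding centre, and had 48.9, 47.6 and 46.5 CPM in WT and 57.6, 59.4 and 57.4 in the rsm1-labelled libraries (0.29 ± 0.04, adjusted p = 1.02e-05). For both genes every rsm1-labelled library lay above every WT library. The large-subunit genes mrpl10, for uL15m, and mrpl24, for bL28m, rose by 0.14 ± 0.04 each (adjusted p = 0.00625 and 0.0032). The gene mrpl1, for uL1m of the L1 stalk, stood at 0.09 ± 0.04 (adjusted p = 0.0406), a call that was lost in 6 of the 9 fits that each left out a library (those without a WT library, nup211-1435 replicate 2, or rsm1-labelled replicate 1 or 3).

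**Figure D2:**
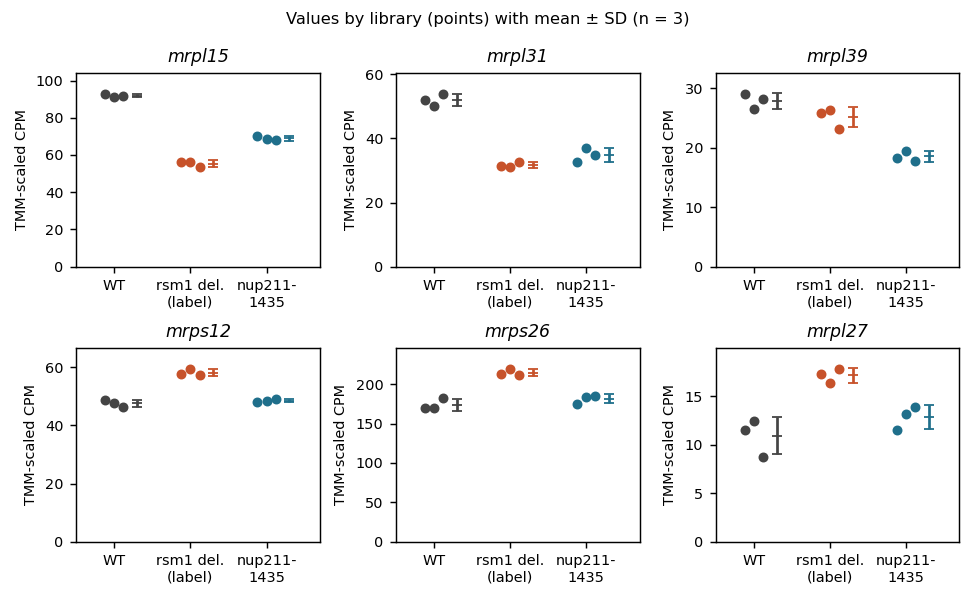
Values of 6 mitoribosomal genes in each of the 9 libraries (points, TMM-scaled CPM, axes from 0) with mean ± SD (n = 3) beside them. The genes mrpl15 and mrpl31 were lower in both mutants, mrpl39 was lowest in nup211-1435, and mrps12, mrps26 and mrpl27 were highest in the rsm1-labelled libraries.

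In nup211-1435 the changes were again small, from -0.59 to 0.24 on the log2 scale, and no member changed 2-fold. With TMM scaling 16 of 39 genes were called lower and 4 higher, whereas scaling by total counts gave 6 lower and 19 higher. Across all features 32% were called lower and 32.9% higher with TMM, and 20% and 49.2% with total counts. The median of the members was -0.05 beside 0.01 for all features with TMM, and 0.08 beside 0.14 with total counts. The summed level was 2544 ± 15.9 TMM-scaled CPM (SD, n = 3), below WT, while its share of raw counts, 0.262%, was above the 0.251% of WT. Called lower with both scalings were mrpl39, mrpl31, mrpl15, mrps16, mrpl23 and mrpl16, and called higher with both were mrps18, mrpl17, mrpl37 and mrpl1. These values share the WT libraries with those of the other mutant.

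The deepest fall was that of mrpl39, which encodes bL33m, a small protein of the large subunit. It had 29.0, 26.5 and 28.2 CPM in WT and 18.2, 19.5 and 17.9 in nup211-1435, with no overlap (-0.59 ± 0.07, adjusted p = 1.59e-06). In the rsm1-labelled libraries it had 25.8, 26.4 and 23.2 CPM, just under the WT range, and was not called (-0.15 ± 0.06, adjusted p = 0.0525). The mitochondria-specific mrpl31 had 32.6, 36.96 and 34.9 CPM (-0.58 ± 0.05, adjusted p = 1.33e-07), and mrpl15 had 70.3, 68.5 and 67.96 (-0.42 ± 0.04, adjusted p = 7.04e-08). In both genes every nup211-1435 library lay below every WT library.

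In the small subunit, mrps16 had 92.9, 91.1 and 94.7 CPM in WT and 75.6, 74.3 and 76.6 in nup211-1435. It fell by 0.30 ± 0.04 (SE) on the log2 scale without overlap (adjusted p = 4.96e-06), while its value in the rsm1-labelled libraries was -0.08 ± 0.04 (adjusted p = 0.0629). Among the universal large-subunit families mrpl23 had -0.29 ± 0.04 (adjusted p = 3.82e-05), mrpl16 -0.28 ± 0.04 (adjusted p = 1.52e-05) and mrpl22 -0.22 ± 0.04 (adjusted p = 0.00044). The mitochondria-specific mrpl28 had -0.21 ± 0.05 (adjusted p = 0.00271). With total counts the calls of mrpl22 and mrpl28 were lost (adjusted p = 0.0917 and 0.206).

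The 4 genes called higher in nup211-1435 with TMM stood close to the threshold, and the fits below that leave out a library also used TMM. With total counts the adjusted p of these 4 genes ran from 4.48e-05 (mrpl17) to 0.000542 (mrpl37). The gene mrps18 had 44.2, 42.5 and 44.2 CPM in WT and 46.8, 49.9 and 48.6 in nup211-1435 (0.15 ± 0.05, adjusted p = 0.0143), and the call was lost without nup211-1435 replicate 2 (adjusted p = 0.0632). For mrpl17, whose product mL46 occurs only in mitochondria, the WT libraries had 51.5, 52.0 and 49.7 CPM and those of nup211-1435 55.1, 55.4 and 55.1. Its rise of 0.11 ± 0.04 (adjusted p = 0.0161) was not called without WT replicate 3 (adjusted p = 0.0747). The genes mrpl37 (0.14 ± 0.06, adjusted p = 0.0427) and mrpl1 (0.08 ± 0.04, adjusted p = 0.0493) lost their calls in 8 and in 9 of the 9 fits that each left out a library. The exception was the fit of mrpl37 without nup211-1435 replicate 2. No member was called in opposite directions in the comparisons of the mutants with WT.

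The mutants were then compared directly, where both scalings gave the same counts. Of the 39 genes 14 were higher in nup211-1435 than in the rsm1-labelled libraries and 8 were lower, by -0.44 to 0.31 on the log2 scale. Across all features 24.5% were called higher and 25.7% lower. The median of the members was 0.04 beside -0.00 for all features with TMM scaling, and 0.03 beside -0.01 with total counts. Of the genes called higher 13 belonged to the large subunit and 1 to the small, and of those called lower 5 and 3.

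The genes with the largest positive differences were all of the large subunit. First came mrpl15 (0.31 ± 0.04, adjusted p = 6.19e-06), mrpl23 (0.25 ± 0.05, adjusted p = 0.000418) and mrpl22 (0.23 ± 0.04, adjusted p = 0.00062). The gene mrpl7, for uL5m, which in bacteria contacts tRNA, had 68.7, 71.6 and 67.8 CPM in the rsm1-labelled libraries and 76.97, 82.9 and 84.5 in nup211-1435 (0.23 ± 0.04, adjusted p = 0.000269). Its nup211-1435 libraries were all higher, and their range took in that of WT, 79.4 to 82.1 CPM. With total counts mrpl7 was called higher in nup211-1435 than in WT (0.15, adjusted p = 0.00824). The gene mrpl44 stood at 0.21 ± 0.07 (adjusted p = 0.0269). Its call was lost without nup211-1435 replicate 1 or without rsm1-labelled replicate 1 or 3 (adjusted p = 0.123, 0.0567 and 0.0972).

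Lower in nup211-1435 were mrpl39 (-0.44 ± 0.07, adjusted p = 7.18e-05) and 4 genes whose mean was highest in the rsm1-labelled libraries. These were mrpl27 (-0.41 ± 0.11, adjusted p = 0.00615), mrps12 (-0.26 ± 0.04, adjusted p = 6.27e-05), mrps26 (-0.24 ± 0.04, adjusted p = 7.16e-05) and mrpl38 (-0.24 ± 0.06, adjusted p = 0.00332). The nup211-1435 libraries had 48.1, 48.3 and 49.0 CPM of mrps12 and 175.0, 183.8 and 185.3 of mrps26. Both ranges overlapped those of WT on this scale. For both genes the test of nup211-1435 against WT made no call with TMM (adjusted p = 0.596 and 0.165). With total counts both were called higher than WT (0.16, adjusted p = 0.00316, and 0.2, adjusted p = 0.000374). The gene mrpl38 had 31.4, 31.3 and 30.3 CPM in nup211-1435, below the 35.95 to 37.6 of the rsm1-labelled libraries and the 32.0 to 37.7 of WT. With total counts mrpl38 was not called in nup211-1435 against WT (-0.06, adjusted p = 0.413).

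**Figure D3:**
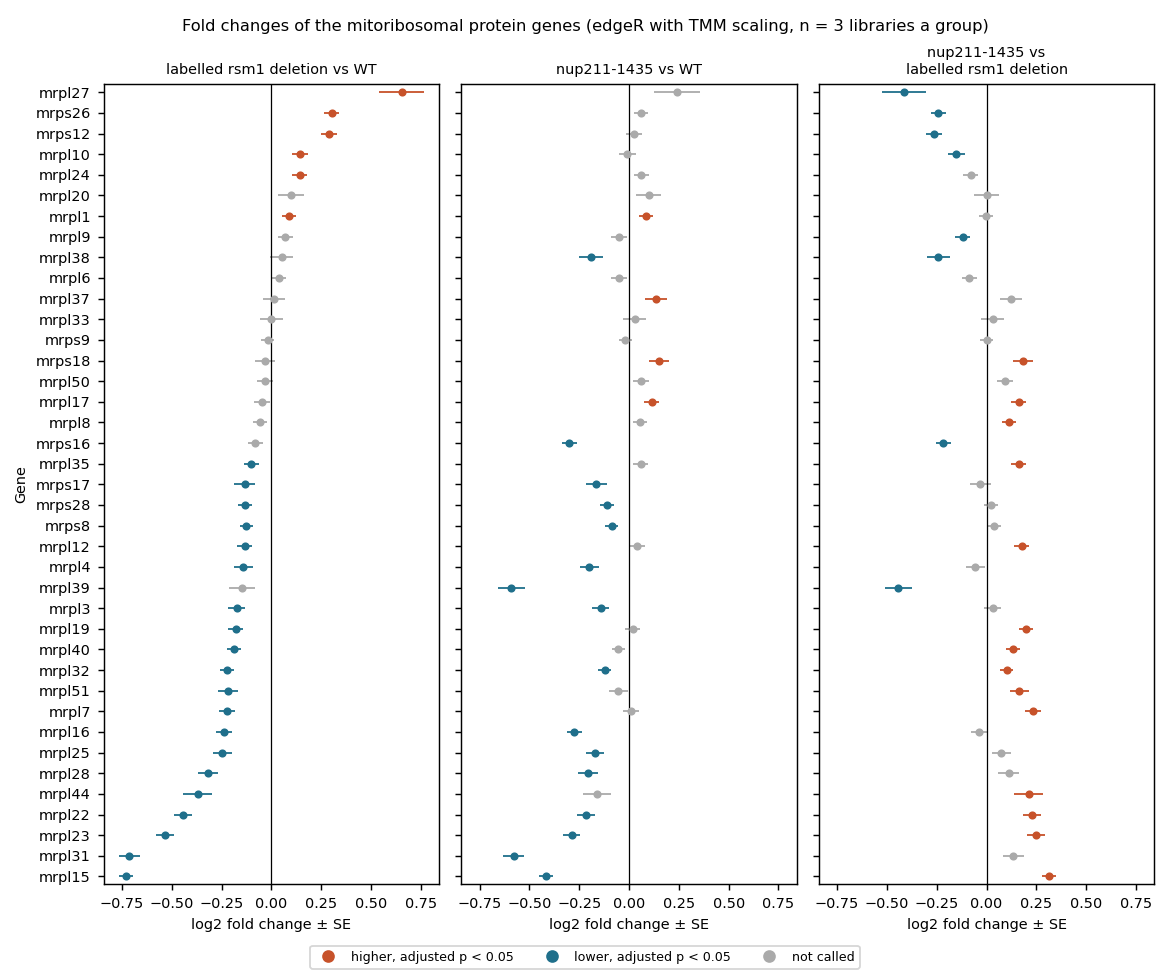
Log2 fold changes ± SE of the 39 genes in each comparison (edgeR with TMM scaling, n = 3 libraries a group), in the same order in each panel, with called genes in colour. With TMM 20 and 16 genes were called lower than WT, counts that became 7 and 6 with total-count scaling, while the direct comparison kept 14 higher and 8 lower under both.

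Both subunits and each protein family held genes of either direction or no call. In the rsm1-labelled libraries 17 of the 31 large-subunit genes were lower and 4 higher (median -0.14) with TMM, and 7 lower and 13 higher (median 0.00) with total counts. The 8 small-subunit genes had 3 lower and 2 higher (median -0.06) with TMM, and 0 lower and 3 higher (median 0.09) with total counts. In nup211-1435 both subunits had a median of -0.05 with TMM and of 0.08 with total counts. By the annotated product, 10 members belong to mitochondria-specific families, 16 to universal and 5 to bacterial ones, and 8 are not assigned. The mitochondria-specific genes are all of the large subunit. In the rsm1-labelled libraries 7 of them were lower and 0 higher (median -0.23) with TMM, and 4 lower and 3 higher (median -0.09) with total counts. The universal genes had 10 lower and 3 higher (median -0.13) with TMM, and 3 lower and 6 higher (median 0.01) with total counts. In nup211-1435 the medians were -0.15 for the mitochondria-specific and -0.05 for the universal genes with TMM, and -0.02 and 0.08 with total counts. Across all features in the rsm1-labelled libraries 34.1% were lower and 36.7% higher with TMM, and 22.4% lower and 50.3% higher with total counts. No difference between these classes was tested.

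The members lie on all 3 nuclear chromosomes, 11 on chromosome I, 18 on II and 10 on III. Their annotated exons are 303 to 3670 nt long (median 961), and 13 of the 39 have introns. Across the members the log2 fold change had a Spearman rho with exon length of 0.30 in the rsm1-labelled libraries and of 0.36 in nup211-1435. Over all 4995 protein-coding genes tested the same values were 0.37 and 0.34, so values of that size were found outside the family too. The points of each correlation share the libraries and their depth, and are given as a description.

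Most members share their locus with other transcripts. In the annotation 34 of 39 overlap a feature on the opposite strand, 25 of them over more than 50% of their exons, and 8 overlap a feature on the same strand by at most 212 nt. Reads of overlapping partners cannot be told apart without knowing the strand setting of the counting, which is not given in the sources used here. Over the 33 pairs of a member and an overlapping feature that was tested, which involve 29 members, the log2 fold changes with TMM had the same sign in 19 pairs and opposite signs in 13 in the rsm1-labelled libraries, and in 20 and 13 in nup211-1435. The exons of mrpl15 lie wholly (100%) within those of sid4, a septation gene, on the opposite strand. There sid4 had -0.07 (adjusted p = 0.091) in the rsm1-labelled libraries and 0.39 (adjusted p = 1.52e-07) in nup211-1435. For mrpl22, overlapped over 92.9% of its exons by SPCC1739.01, the partner rose by 0.67 (adjusted p = 1.26e-10) and 0.43 (adjusted p = 1.38e-08) where mrpl22 fell. On the strand opposite to mrpl31, ubp1 rose by 0.33 (adjusted p = 7.96e-06) and 0.36 (adjusted p = 3.26e-06) where mrpl31 fell. Of the other partners, some changed in the direction of their member in the rsm1-labelled libraries and some against it.

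On the strand opposite to mrps26, meu22 had 1.01 (adjusted p = 3.72e-06) in the rsm1-labelled libraries and 0.64 (adjusted p = 0.000435) in nup211-1435, beside 0.30 and 0.06 for mrps26. On the strand of mrpl27, SPAC3A12.06C had 0.36 (adjusted p = 2.18e-07) and 0.06 (adjusted p = 0.126), beside 0.65 and 0.24 for mrpl27. On the strand of mrpl16, lys4, a gene of lysine synthesis, had -0.22 (adjusted p = 2.82e-05) and -0.50 (adjusted p = 6.17e-09), beside -0.24 and -0.28 for mrpl16. The overlaps differ in size. Opposite-strand features, meu22 among them, cover 88.2% of the exons of mrps26. The overlap with SPAC3A12.06C is 30 of the 581 exon nt of mrpl27, and that with lys4 is 26 of the 1611 of mrpl16. The part of overlapping reads in these values was not tested. The 5 members with no partner on the opposite strand (mrpl10, mrpl38, mrpl44, mrps9 and mrps12) had 2 higher and 1 lower in the rsm1-labelled libraries and 0 higher and 1 lower in nup211-1435 with TMM, and 4 higher and 1 lower, and 3 higher and 0 lower, with total counts. The shares over all features are those given above for each comparison and scaling.

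The genes beside a member did not always move with it. The upstream coding neighbour is divergent for 26 members and in tandem for 13. The members mrps12 and mrpl28 are each other's divergent neighbour, and in the rsm1-labelled libraries mrps12 rose by 0.29 while mrpl28 stood at -0.32. The gene str1, a siderophore-iron transporter, is the divergent neighbour of mrpl39. Its mean was 28.5 CPM in WT, 382 in the rsm1-labelled libraries and 174 in nup211-1435, a rise of 3.73 (adjusted p = 4.38e-05) and 2.6 (adjusted p = 0.000346), whereas mrpl39 was lowest in nup211-1435.

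The other mitochondrial genes give the setting of the family. Beside the counts of each list below stand the shares over all features. With TMM these were 34.1% lower and 36.7% higher in the rsm1-labelled libraries, and 32% and 32.9% in nup211-1435. With total counts they were 22.4% lower and 50.3% higher, and 20% and 49.2%. A list of 26 mitoribosomal protein genes was drawn by other name stems or by the words "mitochondrial ribosomal protein" in the product. Of these, 20 were lower and 4 higher than WT in the rsm1-labelled libraries (median -0.19) with TMM scaling. In nup211-1435, 14 were lower and 2 higher (median -0.12). With total counts these became 9 lower and 6 higher (median -0.04), and 6 lower and 9 higher (median 0.02). By a wider match of the product alone, 38 genes that are no members encode such a protein. Of these, 12 are outside the list of 26, and 37 of the 38 were tested. Of these 27 were lower and 5 higher (median -0.18) in the rsm1-labelled libraries and 20 lower and 2 higher (median -0.13) in nup211-1435 with TMM, and 12 lower and 10 higher, and 7 lower and 12 higher, with total counts. In the former mrp20 had 43.6 ± 2.29 CPM against 62.6 ± 0.978 in WT (SD, n = 3; -0.52, adjusted p = 1.18e-07), and rsm10 rose by 0.29 (adjusted p = 5.6e-05). In nup211-1435 mrp10 stood at -0.43 (adjusted p = 1.42e-05) and mrp21 at 0.25 (adjusted p = 3.06e-05). The corresponding medians of the mrpl and mrps genes were -0.13 and -0.05, and the difference was not tested.

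Of 33 genes listed for mitochondrial translation and mitoribosome assembly, 17 were lower and 10 higher in the rsm1-labelled libraries and 14 lower and 8 higher in nup211-1435, with TMM, and 8 lower and 15 higher, and 5 lower and 18 higher, with total counts. The list spanned -1.0 to 0.99 in the former, where the mrpl and mrps genes spanned -0.73 to 0.65. The translation factor guf1, a GTPase, stood at -1.0 (adjusted p = 2.32e-08) in the former and -0.38 (adjusted p = 0.000372) in the latter. The pentatricopeptide repeat genes ppr5, at 0.99 (adjusted p = 1.08e-11) in the former, and ppr8, at 0.88 (adjusted p = 5.3e-12) in the latter, rose. Of 28 genes listed by name for import, 24 were lower and 2 higher in the former and 21 and 2 in the latter with TMM (median -0.23 in both), and 15 lower and 3 higher, and 14 and 5, with total counts (medians -0.09 and -0.10). This list includes tim11, annotated as a subunit of ATP synthase and also counted with the respiratory genes, and without it 23 were lower in the former and 20 in the latter with TMM, and 14 in each with total counts. The receptor tom20 fell in both mutants (-0.66, adjusted p = 3.5e-10, and -0.42, adjusted p = 5.06e-08) and tim44 rose in both (0.38, adjusted p = 1.33e-06, and 0.21, adjusted p = 0.000609).

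The nuclear respiratory chain and ATP synthase genes, chosen by name, had a median further from 0 than the mitoribosomal genes in the rsm1-labelled libraries, where 44 of 54 were lower and 1 higher (median -0.39) with TMM and 34 lower and 3 higher (median -0.25) with total counts. In nup211-1435 24 were lower and 3 higher (median -0.11) with TMM, but 9 lower and 15 higher (median 0.03) with total counts. In the direct comparison 38 of the 54 were higher in nup211-1435 and 4 lower, at a median of 0.32, where the mitoribosomal genes had 0.04. Across all features 24.5% were higher and 25.7% lower in that comparison. Of the 141 genes listed as cytosolic ribosomal proteins 137 were lower and 0 higher in the rsm1-labelled libraries (median -0.42), and 131 lower and 2 higher in nup211-1435 (median -0.37). With total counts 129 and 123 of the list were lower (medians -0.28 and -0.23). This list was drawn by name and also holds rpp1, rpp21 and rpp40, which encode RNase P or MRP subunits. Of the 137 genes whose product names a ribosomal protein, 135 were lower and 0 higher in the rsm1-labelled libraries with TMM. In nup211-1435, 130 of them were lower and 0 higher. With total counts 127 were lower and 0 higher, and 122 lower and 1 higher. The respiratory list holds assembly factors and also cox24, annotated as the mitoribosomal protein mS38, without which 43 of 53 were lower in the rsm1-labelled libraries and 24 in nup211-1435 with TMM, and 34 and 9 with total counts. The difference between the lists was not tested. The 36 features of the mitochondrial genome had 0 counts in all 9 libraries, so the RNAs that the mitochondrial ribosome translates were not measured here.

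**Figure D4:**
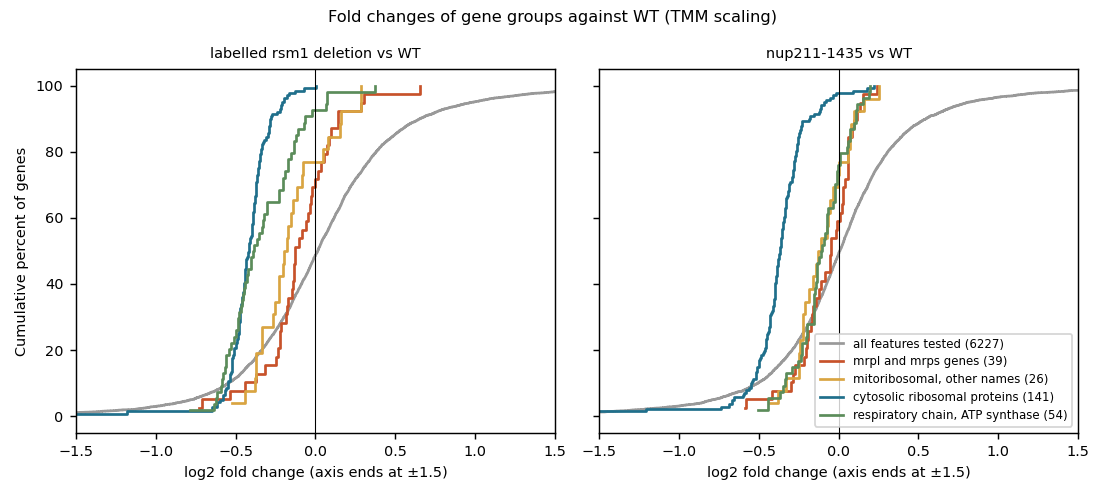
Cumulative share of genes (percent) by log2 fold change against WT, for all features tested, the 39 mrpl and mrps genes, 26 listed mitoribosomal genes of other names, and the 141 and 54 genes listed as cytosolic ribosomal and respiratory (TMM scaling, axis ends at ±1.5). The mrpl and mrps genes have medians of -0.13 and -0.05, between all features (0.01 in both) and the cytosolic ribosomal proteins (-0.42 and -0.37), and with total counts all curves move to the right by about 0.143 and 0.135.

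In the authors' deposited tables, 20 members were lower and 5 higher than WT in the rsm1-labelled libraries at an adjusted p under 0.05, and 16 lower and 3 higher in nup211-1435. The share over all features of those tables was not computed. In the fit with TMM, 34.1% of all features were lower and 36.7% higher in the former, and 32% and 32.9% in the latter. The log2 fold changes of the fit exceeded those of the authors' deposited tables by a median of 0.006 in the former and 0.000 in the latter.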

How the data were processed

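Poly(A) RNA-seq counts of 9 libraries (3 strains, 3 biological replicates each) were analysed. The authors deposited whole-number read counts for 6988 features, not normalized. The submitters' processing notes name the aligner HISAT2 2.1.0, SAMtools, the counter HTSeq 0.10.0, DESeq2 and the build ASM294v2. Strand setting and annotation of the counting are not given in the sources used. Tables of log2 fold changes, SE and adjusted p-values that the authors deposited per mutant were only set beside the fit. Per the labels' protocols, libraries came from a strand-preserving kit and paired-end sequencing.

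Gene names, products, exon lengths, overlaps and gene order were taken from the RefSeq annotation of ASM294v3 (6836 features matched by locus tag, 12 by synonym, 140 not matched). No coordinates or sequences are given, since the genome used here is of another build. For the same reason the planned promoter motif search was not run. Exon lengths include annotated untranslated parts.

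Features were filtered by filterByExpr of edgeR 4.0.16 (R 4.3.3; minimum count 10, minimum total 15), leaving 6227, scaled by TMM, and fitted over all 9 libraries with robust quasi-likelihood and no covariate. Groups were compared by the two-sided quasi-likelihood F test with Benjamini-Hochberg adjustment, called at adjusted p under 0.05. The biological coefficient of variation was 3.95%. The SE is the log2 fold change divided by the square root of F. The steps were tested on simulated data. Replicates differed by more than sampling noise (chi-square per degree of freedom 2.82 to 12.04). Alternatives were DESeq2 1.42.0 size factors, its Wald test, total-count scaling, no filter, only the compared groups, a replicate block and leaving out each library.

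Members and lists were chosen with earlier results of these data known. Genes named with values were, against WT, up to 8 called members with the largest log2 fold change in each direction. Between the mutants they were 5 in each direction. The 3 highest and 3 lowest per kb in WT and the 2 with the widest spread in WT were also named. For the lists of other mitoribosomal, translation and import genes, the called genes with the largest rise and fall are given. The same rule was planned for the respiratory and cytosolic ribosomal lists, but their genes are not given with values. The gene neighbours and overlapping partners named were chosen after their values were seen. From the list of mitoribosomal proteins under other names, 5 of 31 genes were left out: mrp1, mrx11, mrx21 and sws1, whose product names no ribosomal protein, and kgd4, whose name is that of a ketoglutarate dehydrogenase subunit although its product reads as a ribosomal protein. With them, 23 were lower and 4 higher (median -0.20) in the rsm1-labelled libraries and 16 lower and 2 higher (median -0.13) in nup211-1435. The list of translation genes was chosen by name and holds some of other function, such as mto1 and tma22. A list of mitochondrial tRNA ligases found no gene by product name. The wider list of mitoribosomal genes by product was chosen after seeing the data. So were the counts without cox24 and tim11 and the counts of cytosolic genes by product.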

Additional observations from a re-analysis of the deposited data

How the results depend on the processing

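Total-count scaling moved the family's counts most. It gave 16 members higher and 7 lower in the rsm1-labelled libraries, and 19 higher and 6 lower in nup211-1435, where TMM scaling gave 6 and 20, and 4 and 16. It also moved the medians against WT from -0.13 to 0.02 and from -0.05 to 0.08. The change follows from the shift of all features by 0.143 and 0.135, and what caused the scalings to differ was not tested. The direct comparison of the mutants kept 14 higher and 8 lower.

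The count of members higher in nup211-1435 was 2 with DESeq2 size factors, with no filter, with only the compared groups and with the replicate block, and 1 with the DESeq2 Wald test. It was 2 to 3 when a library was left out. The calls of mrpl1 and mrpl37 account for most of this. Without single libraries the other counts ranged over 5 to 6 higher and 18 to 22 lower in the rsm1-labelled libraries, 14 to 16 lower in nup211-1435, and 12 to 16 higher and 7 to 8 lower between the mutants. The median between the mutants, 0.039, rose to 0.064 without nup211-1435 replicate 3. Of 324 values of named genes with a library left out, 296 kept their call, 28 lost it and 0 changed sign, and of 216 under other settings 198 kept it, 18 lost it and 0 changed sign.

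The replicate numbers share no stated culture or day. Same-numbered libraries correlated at -0.08 to 0.082 in their deviations from group means. Between nup211-1435 and WT every library correlated best with its own number (0.013, 0.027 and 0.027). In the other comparisons not every library did. Values this near 0 cannot decide whether the numbers pair the libraries. With the replicate block 6 members were higher and 20 lower in the rsm1-labelled libraries, 2 and 16 in nup211-1435, and 14 and 8 between the mutants.

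With 3 libraries a group and an SE of 0.03 to 0.12, changes below about 0.1 on the log2 scale were mostly not called.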
